A study of Mus musculus with 3 samples.

Results

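Acute-phase genes were followed through single-cell RNA profiles of the mouse aortic adventitia, the connective tissue layer around the vessel, namely Saa3, Saa1, Lcn2, Hp, Cp and Ptx3. They were 6 of the 32285 genes in the count matrices, and the set was chosen for the level of Saa3 in the library from running mice, so that the values of Saa3 there are a description and not a finding. Mice received saline (Vehicle), the pressor peptide angiotensin II (AngII), or that peptide while free to run on a wheel (AngII_VWR). Each group of 3 mice, per the labels, was 1 library, with no word on how the mice were combined. Strain, age, sex, dose and duration were not given in the sources used here. With 1 library per group there was no replicate check and no test, and each comparison is between libraries.

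Acute-phase proteins are secreted into blood and tissue when cytokines such as interleukin-6 and interleukin-1 signal inflammation. The liver is their best known source, but fibroblasts, macrophages, fat cells and neutrophils also make some of them. C/EBP factors, NF-kB and STAT3 are the transcription factors best known to switch these genes on. Saa3 and Saa1 encode serum amyloid A proteins, which bind lipids and attract leukocytes. Lcn2 encodes lipocalin 2, which withholds iron from bacteria by binding their siderophores. Hp encodes haptoglobin, which captures free haemoglobin, and Cp encodes ceruloplasmin, a copper-carrying ferroxidase. Ptx3 encodes a long pentraxin, a soluble pattern-recognition protein that also helps to build hyaluronan-rich matrix.

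On the mm10 assembly (GENCODE vM21 annotation), Saa3 (ENSMUSG00000040026) lies at chr7:46711998-46715700 and Saa1 (ENSMUSG00000074115) at chr7:46740497-46742980, both on the minus strand. Lcn2 (ENSMUSG00000026822) lies at chr2:32384633-32388252 and Hp (ENSMUSG00000031722) at chr8:109575128-109579172, both also on the minus strand. Cp (ENSMUSG00000003617) lies at chr3:19957054-20009145 and Ptx3 (ENSMUSG00000027832) at chr3:66219910-66225805, both on the plus strand. All 6 are annotated as protein-coding. Saa1 has a near-identical neighbour, Saa2, so its few counts are uncertain.

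The 250 bases before the start annotated in RefSeq are shown for Saa3, Saa1 and Lcn2, because the UMIs of these members lay in the fewest cells (described further on). Low counts can also bring this about, above all for Saa1. The sequences are from RefSeq (GRCm38.p6), 5′ to 3′ on the gene's own strand, and capitals mark matches to TTNNGNAA, a C/EBP pattern, on either strand. The windows are chr7:46715677-46715926 for Saa3, chr7:46742981-46743230 for Saa1 and chr2:32387740-32387989 for Lcn2, each read on the minus strand. RefSeq starts can differ from the GENCODE gene ends given above. The Lcn2 window lies wholly within the GENCODE gene span, and the Saa3 window overlaps its own.
Saa3: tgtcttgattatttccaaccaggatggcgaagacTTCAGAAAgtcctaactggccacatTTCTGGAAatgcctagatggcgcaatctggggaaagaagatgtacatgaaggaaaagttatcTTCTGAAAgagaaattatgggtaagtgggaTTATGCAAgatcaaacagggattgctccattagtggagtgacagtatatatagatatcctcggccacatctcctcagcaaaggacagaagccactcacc
Saa1: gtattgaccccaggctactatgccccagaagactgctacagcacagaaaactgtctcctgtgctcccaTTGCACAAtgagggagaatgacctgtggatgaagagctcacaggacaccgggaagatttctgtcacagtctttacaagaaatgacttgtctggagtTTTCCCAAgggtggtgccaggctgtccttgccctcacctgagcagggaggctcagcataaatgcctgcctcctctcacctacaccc
Lcn2: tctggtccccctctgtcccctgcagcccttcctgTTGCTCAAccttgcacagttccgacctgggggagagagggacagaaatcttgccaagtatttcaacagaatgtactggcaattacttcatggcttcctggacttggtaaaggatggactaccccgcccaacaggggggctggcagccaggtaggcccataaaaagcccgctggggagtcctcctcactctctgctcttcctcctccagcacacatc
Saa3 held 4 such matches, Saa1 held 2 and Lcn2 held 1. The pattern is loose: 36.8% of 32851 RefSeq promoter windows held at least 1 match in the 250 bases before the start. An NF-kB consensus, TTCNNNGAA (STAT) and the TATA box (TATAAA) were also searched on both strands and had no match in these 3 windows, against 4.11%, 7.02% and 12.4% of all windows, and no match says only that those letters are not there. RefSeq windows were found for 5 of the 6 members. Cp has 2 annotated starts, with 1 C/EBP match before each, and 2 overlapping TATA box matches before the second. Ptx3 had 1 C/EBP match upstream and 1 match to the NF-kB consensus in the first 10 bases after its start. Matches are a description of letters, not of sites in use.

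The libraries held 12324 (Vehicle), 9115 (AngII) and 16125 (AngII_VWR) cells after filtering, with medians of 9430.5, 13154 and 4472 UMIs (unique molecular identifiers, 1 per captured RNA molecule) per cell. Fibroblast-rule cells had at least 1% of their UMIs on Col1a1, Col1a2, Dcn and Lum, and numbered 6545, 6081 and 10913. Many lay near the cut: with cells that met both rules, 3064 of 6610, 1153 of 6095 and 3703 of 10989 had less than 2%. Macrophage-rule cells had at least 0.3% on C1qa, C1qb and C1qc, and numbered 2537, 1998 and 3221. Cells that met neither rule numbered 3177, 1022 and 1915. They were a mixture that differed between the libraries: 544, 15 and 41 were assigned to smooth muscle, by at least 1% of UMIs on Acta2, Myh11 and Tagln. Levels in them were not adjusted for this. Markers outside the class rules followed the classes: Col3a1, a fibrillar collagen gene, stood at 4112, 8993 and 7143 UMIs per 1000000 class UMIs (CPM) in fibroblast-rule cells and at 90.8, 143 and 322 CPM in macrophage-rule cells, whereas Csf1r, the receptor for macrophage growth factor, stood at 8.41, 8.53 and 16.6 CPM in the former and at 1151, 1112 and 770.0 CPM in the latter. All levels below are CPM with an exact 95% Poisson interval, which covers counting error only. The running library was the shallowest per cell, and its counts came from another Cell Ranger version, so that these features and the running itself cannot be told apart.

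Saa3 was almost silent in the fibroblast-rule cells of Vehicle and was the member with the largest ratio in both comparisons. Its level there was 0.369 CPM (0.243 to 0.537) in Vehicle, 57.7 (56.1 to 59.4) in AngII and 215 (212 to 219) in AngII_VWR. AngII was 156-fold above Vehicle (107 to 237), and AngII_VWR was 3.73-fold above AngII (3.61 to 3.86). Macrophage-rule cells had 0.736 CPM in Vehicle, 24.4 in AngII and 10.4 in AngII_VWR, and the AngII_VWR level was 2.33-fold below AngII (1.98 to 2.76). This order rested on 9 cells, which held 572 of the 761 AngII UMIs: without cells of 0.1% or more Saa3, left out after seeing the data, the levels were 6.08 CPM in AngII and 10.2 CPM in AngII_VWR, and the log2 ratio turned from -1.15 to 0.66. The share of macrophage-rule cells with a Saa3 UMI was 4.004% in AngII and 5.03% in AngII_VWR. Cells of neither class had 0.605, 2.63 and 12.2 CPM.

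Saa1, the circulating serum amyloid A that is mainly of liver origin, was near the limit of detection. Fibroblast-rule cells held 3, 20 and 27 Saa1 UMIs in Vehicle, AngII and AngII_VWR, or 0.041, 0.243 and 0.462 CPM. AngII was 5.92-fold above Vehicle, with an interval of 1.76 to 31.1. AngII_VWR was 1.90-fold above AngII, with an interval of 1.03 to 3.58. No macrophage-rule cell held a Saa1 UMI in any library, which allows a share of cells with a UMI of up to 0.118% in Vehicle, 0.150% in AngII and 0.0931% in AngII_VWR and does not bear on expression below detection.

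Lcn2 was low in fibroblast-rule cells and higher in the cells of neither class. The fibroblast-rule level was 0.684 CPM (0.508 to 0.902) in Vehicle, 5.65 (5.15 to 6.19) in AngII and 8.51 (7.78 to 9.29) in AngII_VWR. AngII was 8.26-fold above Vehicle (6.16 to 11.3) and AngII_VWR was 1.51-fold above AngII (1.33 to 1.71). Without the cells of 0.1% or more Saa3, the log2 ratio of AngII over Vehicle fell from 1.98 to 0.65, under a 2-fold difference. Macrophage-rule cells held 8, 5 and 14 Lcn2 UMIs, at most 0.803 CPM. Cells of neither class had 19.4, 54.7 and 56.1 CPM. Those with endothelial markers, described further on, held 422 of 578, 514 of 562 and 362 of 501 of these Lcn2 UMIs. They numbered 62 of 3177, 157 of 1022 and 80 of 1915 cells. The make-up of the class thus differed between the libraries, and its part in these levels was not tested.

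Hp was highest in AngII in fibroblast-rule cells and in cells of neither class. Fibroblast-rule cells had 20.8 CPM (19.8 to 21.9) in Vehicle, 117 (115 to 120) in AngII and 47.3 (45.5 to 49.0) in AngII_VWR. AngII was 5.64-fold above Vehicle (5.35 to 5.96), and AngII_VWR was 2.49-fold below AngII (2.38 to 2.59), a log2 ratio of -1.30 that was -0.998 without the cells of 0.1% or more Saa3. With class cuts doubled the log2 ratio of AngII over Vehicle was 3.05 in place of 2.44. The macrophage-rule level was between 2.73 and 4.99 CPM in the 3 libraries. Cells of neither class had 52.5, 227 and 32.4 CPM, and 50% of these UMIs lay in 1, 2 and 15 cells.

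In fibroblast-rule cells Cp differed least between the libraries. Fibroblast-rule cells had 110 CPM (107 to 112) in Vehicle, 151 (149 to 154) in AngII and 160.5 (157 to 164) in AngII_VWR. AngII was 1.38-fold above Vehicle (1.34 to 1.42) and AngII_VWR was 1.06-fold above AngII (1.03 to 1.09). Neither direction held throughout: with class cuts doubled the first log2 ratio was -0.01 in place of 0.46, and relative to the median of all genes the second was -0.02 in place of 0.08. Macrophage-rule cells had 92.9, 121 and 71.3 CPM, and AngII_VWR was there 1.70-fold below AngII (1.59 to 1.81).

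In fibroblast-rule cells Ptx3 had the lowest ratio of the members between the running library and AngII. These cells had 79.9 CPM (77.8 to 82.0) in Vehicle, 167 (164 to 170) in AngII and 22.9 (21.7 to 24.2) in AngII_VWR. AngII was 2.09-fold above Vehicle (2.03 to 2.15), and AngII_VWR was 7.28-fold below AngII (6.88 to 7.70). Macrophage-rule cells had 1.41, 3.01 and 0.918 CPM, and cells of neither class 20.2, 42.1 and 10.1 CPM. In the latter AngII_VWR was 4.17-fold below AngII for Ptx3 and 7.02-fold below for Hp. The Ptx3 level was lowest in AngII_VWR in each of the 3 classes, but in macrophage-rule cells, with 16 UMIs there, its interval (0.525 to 1.49) overlapped that of Vehicle (1.03 to 1.88).

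**Figure D1:**
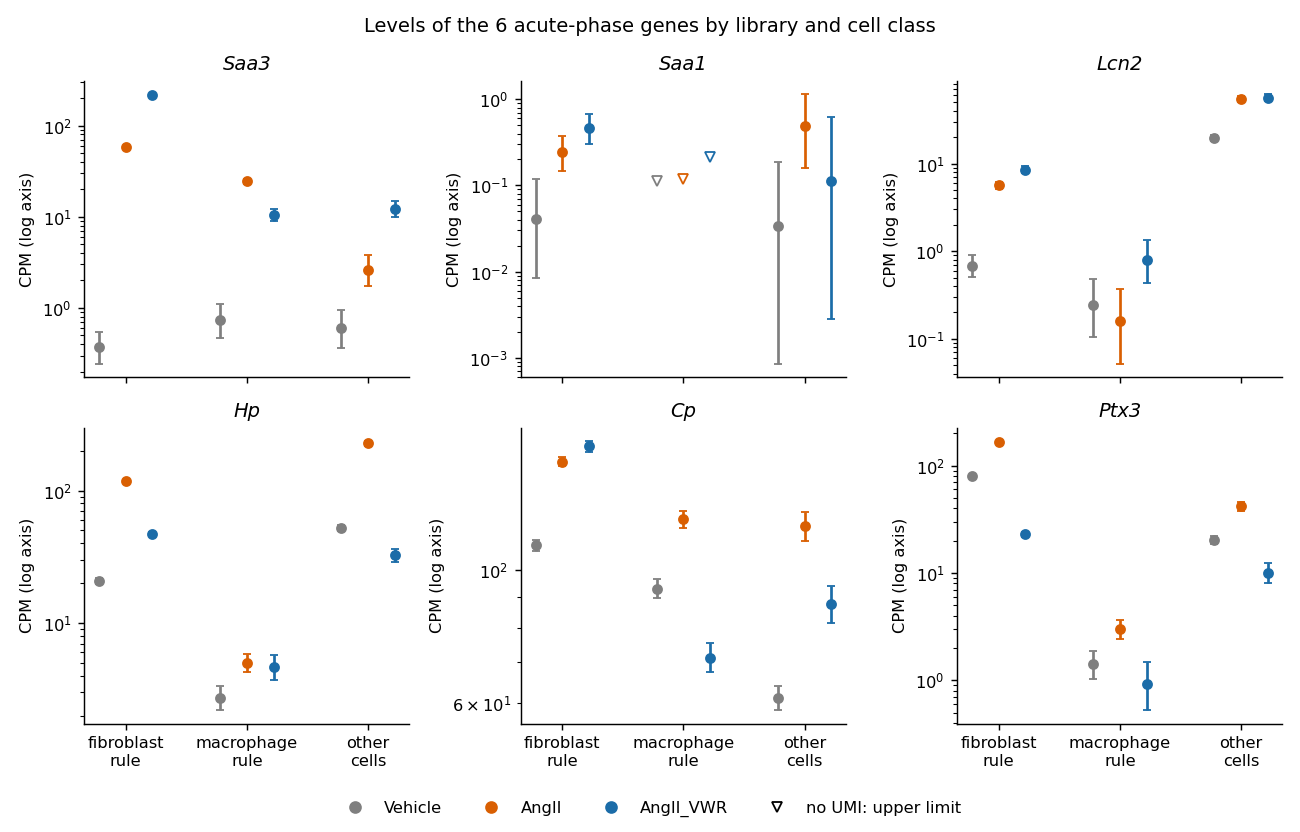
Level of each gene in CPM (log axis, scaled separately for each gene) by cell class, with 1 point per library and exact 95% Poisson intervals; open triangles are upper limits where no UMI was found. In fibroblast-rule cells Saa3 steps up from 0.369 to 57.7 and 215 CPM, whereas Hp and Ptx3 are highest in AngII at 117 and 167 CPM.

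Genes with at least 5 CPM in either library of a pair and at least 10 UMIs over both were called measured, and a gene was called different at a log2 ratio of CPM + 1 of at least 1 either way. In fibroblast-rule cells 5 of the 6 members were measured in each comparison, Saa1 being too low, and Saa3 and Lcn2 passed in AngII over Vehicle only through their AngII level. In AngII over Vehicle, 4 of these 5 were at least 2-fold higher, beside 3.03% of the 10449 measured genes. In AngII_VWR over AngII, 1 was at least 2-fold higher, beside 1.91% of 10589 genes, and 2 were at least 2-fold lower, beside 1.75%. In macrophage-rule cells 2 members were measured, Saa3 and Cp. Of these Saa3 was at least 2-fold higher in AngII over Vehicle, beside 3.43% of 9820 genes, and at least 2-fold lower in AngII_VWR over AngII, beside 1.88% of 10188. The last call was lost when cells were thinned to 2000 UMIs (log2 ratio of -0.68 in place of -1.15), as a mean over cells (-0.46) and with a pseudocount of 10 CPM (-0.75). The set was picked on Saa3 in the running library, so nothing is read from these counts. The comparisons share the AngII library, which enters them on opposite sides. The median log2 ratio of all measured genes was -0.07 in AngII over Vehicle and 0.10 in AngII_VWR over AngII.

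**Figure D2:**
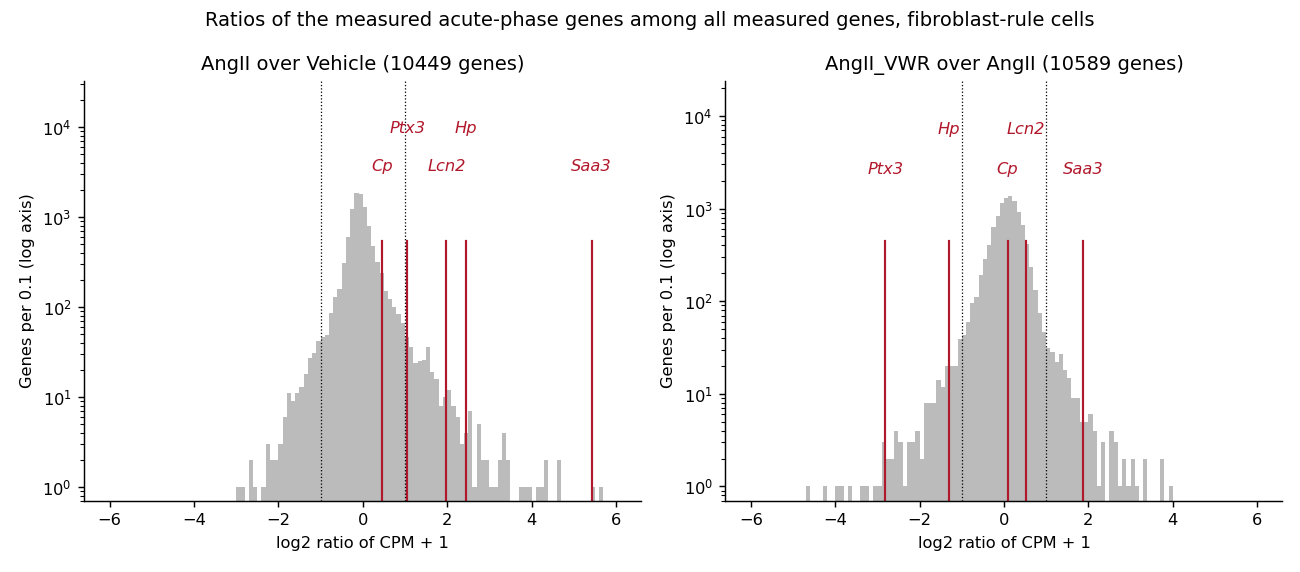
Number of genes (log axis) by log2 ratio of CPM + 1 in fibroblast-rule cells for both comparisons, with red lines at the 5 measured members and dotted lines at a 2-fold difference. Saa3 lies at 5.42 in AngII over Vehicle and at 1.88 in AngII_VWR over AngII, and Ptx3 lies at -2.81 in the latter.

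The Saa3 RNA sat in a handful of cells. In fibroblast-rule cells of AngII, 50% of the Saa3 UMIs lay in 3 of 6081 cells, and the highest cell held 1224. In AngII_VWR 50% lay in 10 of 10913 cells, and the highest cell held 1340. Cells with at least 10 Saa3 UMIs numbered 0, 20 and 74 in Vehicle, AngII and AngII_VWR. In Vehicle the highest fibroblast-rule cell held 6.

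The share of cells with at least 1 Saa3 UMI did not follow the class levels. In Vehicle it was 0.336% of fibroblast-rule, 0.828% of macrophage-rule and 0.315% of the remaining cells, and in AngII 2.04% (1.70 to 2.43%), 4.004% (3.19 to 4.96%) and 1.86%. In AngII_VWR it was 4.16% of fibroblast-rule cells, 5.03% of macrophage-rule cells and 4.18% of the remaining cells, at class levels of 215, 10.4 and 12.2 CPM. After every cell was thinned to 2000 UMIs, leaving out shallower cells, these shares were 2.12%, 1.99% and 2.18%, those of AngII 0.732%, 1.12% and 0.631%, and those of Vehicle 0.126%, 0.0847% and 0.0849%, with intervals that overlapped between the classes in each library. Median depths of the fibroblast-rule cells were 9494, 12993 and 4590 UMIs in the 3 libraries, and those of macrophage-rule cells 12871, 15173.5 and 4878. No class is known here to lack Saa3, and the part of free RNA in cells with few UMIs was not tested. Cells with few Saa3 UMIs are therefore not read as expressing it, although the Saa3-high set below, chosen by share, holds some.

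In AngII and AngII_VWR Lcn2 was about as narrowly held as Saa3 in fibroblast-rule cells, and Hp, Ptx3 and Cp less so. The UMIs of a gene cap the number of cells that can hold them, so Saa1, with 20 and 27 UMIs, cannot be ranked beside them. In AngII, 50% of the fibroblast-rule UMIs lay in 3 cells for Lcn2 and 2 for Saa1, but in 17 for Hp, 116 for Ptx3 and 290 for Cp. In AngII_VWR these numbers were 12 for Lcn2, 4 for Saa1, 84 for Hp, 62 for Ptx3 and 733 for Cp. For Hp, 21.8% of AngII fibroblast-rule cells had at least 1 UMI, against 6.66% of macrophage-rule cells. For Ptx3 the shares were 19.0% and 4.45%.

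**Figure D3:**
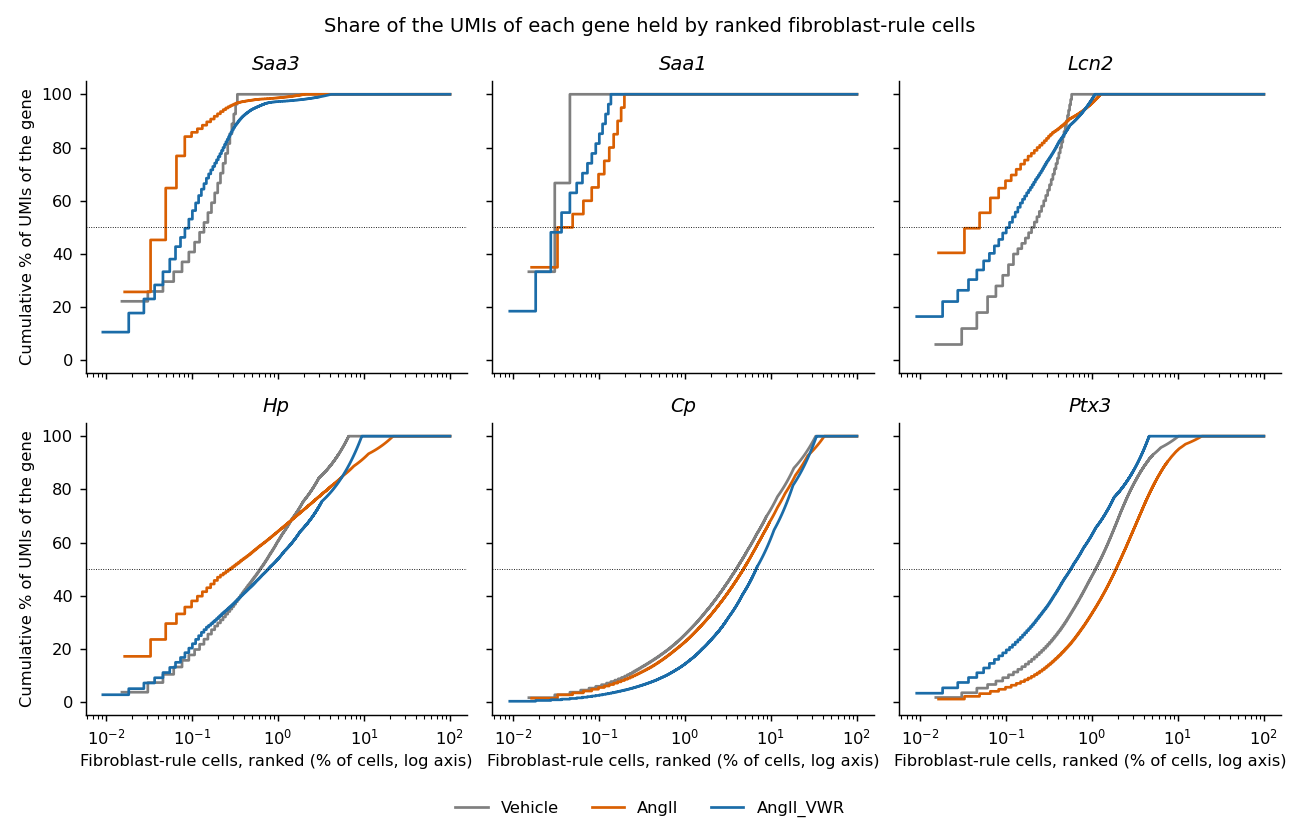
Cumulative percent of the UMIs of each gene (vertical axis) held by fibroblast-rule cells ranked from the highest, as percent of those cells (log axis), with 1 line per library and a dotted line at 50%. The Saa3, Saa1 and Lcn2 lines reach 50% in 2 to 13 cells in every library, whereas Cp needs 258 to 733. Few UMIs cap this number: Vehicle held 27 of Saa3, 3 of Saa1 and 50 of Lcn2. These Vehicle lines, and the Saa1 lines of all libraries, are therefore not comparable with Cp.

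Cells with at least 0.1% of their UMIs on Saa3 were called Saa3-high. They numbered 0 of 12324 in Vehicle, 29 of 9115 (0.318%, exact Clopper-Pearson interval 0.213 to 0.457%) in AngII and 96 of 16125 (0.595%, 0.482 to 0.727%) in AngII_VWR. They held 90.9% and 93.9% of all Saa3 UMIs of the latter libraries. Of the 29 cells in AngII, 19 were fibroblast-rule and 9 macrophage-rule cells, and of the 96 in AngII_VWR, 80 were fibroblast-rule and 4 macrophage-rule cells. The cut crosses a range: 28 and 104 cells lay between 0.05% and 0.2%, with medians of 0.0838% just below and 0.137% just above in AngII, and of 0.0685% and 0.145% in AngII_VWR. In a shallow cell 1 UMI can pass it, and 3 of the 19 and 9 of the 80 fibroblast-rule cells held 1 or 2 Saa3 UMIs. With the Saa3-high cells left out, an alternative chosen after seeing the data, the log2 ratio of Saa3 in fibroblast-rule cells was 1.75 for AngII over Vehicle and 1.17 for AngII_VWR over AngII, in place of 5.42 and 1.88.

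The levels of the other members were compared between Saa3-high and other fibroblast-rule cells. In AngII, Lcn2 stood at 727 CPM in the 19 Saa3-high cells and at 1.65 CPM in the 6062 others, 441-fold apart (360 to 542). Hp stood at 5991 against 84.8 CPM, Ptx3 at 808 against 163, and Cp at 557 against 149. Saa1 stood at 26.4 against 0.098 CPM, from 12 UMIs in 4 cells. Lcn2 and Saa1 were too low in the other cells for the filter given further on. Only their level in the Saa3-high cells would let them pass, so no finding is drawn from their ratios. Few cells carried the levels: Lcn2 was found in 9 of the 19 cells and Hp in 14. Without the 3 cells richest in Saa3, which was tried after seeing the data, Hp stood at 1718 CPM, Lcn2 at 303 and Ptx3 at 459, each above the other cells.

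In AngII_VWR Lcn2, Hp and Ptx3 were again higher in the Saa3-high cells, by smaller factors. Lcn2 stood at 256 CPM in the 80 Saa3-high cells and at 3.37 CPM in the 10833 others, 75.8-fold apart (63.1 to 91.3). Hp stood at 300.3 against 42.0 CPM, which is 7.15-fold (6.38 to 7.996), and was found in 43 of the 80 cells. Ptx3 stood at 50.5 against 22.4 CPM and Saa1 at 18.5 against 0.087 CPM. Here too Lcn2 and Saa1 were too low in the other cells for the filter below, and no finding is drawn from their ratios. Cp was lower in the Saa3-high cells, at 114 against 161 CPM. Without the 3 cells richest in Saa3 these levels were 256 for Lcn2, 294 for Hp and 47.4 for Ptx3.

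Other acute-phase genes were compared in the same cells, from a list of 29. Genes were filtered by their level in the other fibroblast-rule cells, with at least 10 UMIs expected in the Saa3-high cells; this filter replaced one on either group of cells after the counts under that first filter were known. It left 8 of the 29: C3, C4b and Cfb of the complement system, the protease inhibitor Serpina3n, the metallothioneins Mt1 and Mt2, the metalloreductase Steap4 and the zinc transporter Slc39a14. All 8 were at least 2-fold higher in the Saa3-high cells of AngII, beside 2.58% of 6000 genes, and all 8 in AngII_VWR, beside 2.99% of 9183 genes. Of the 5 other members, Hp, Cp and Ptx3 passed this filter in both libraries. All 3 were at least 2-fold higher in AngII and 2 of the 3 in AngII_VWR, beside the same shares. Under the first filter the counts for the list were 11 of 11 and 12 of 12, beside 4.82% and 5.17%. The genes that it added passed only through their level in the Saa3-high cells, so nothing is read from these larger counts. The median log2 ratio of the 8 was 1.90 and 2.13, and that of all genes passing was -0.16 and -0.26.

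C3, the central complement protein, stood at 8759 against 1202 CPM in AngII and at 2442 against 910.5 CPM in AngII_VWR. Serpina3n stood at 1345 against 150.0 CPM in AngII and at 1852 against 190 CPM in AngII_VWR. Mt1 stood at 6201 against 2848 CPM and at 9156 against 1620 CPM. Of the 12 transcription factors and feedback genes of the pathway, 1 was at least 2-fold higher in AngII (the RNase Zc3h12a), beside 2.58% of all genes, and 4 were in AngII_VWR (Cebpb, Nfkbia, Nfkbiz and Bcl3), beside 2.99%. Cebpd was at least 2-fold lower in AngII_VWR, beside 13.1% of all genes.

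**Figure D4:**
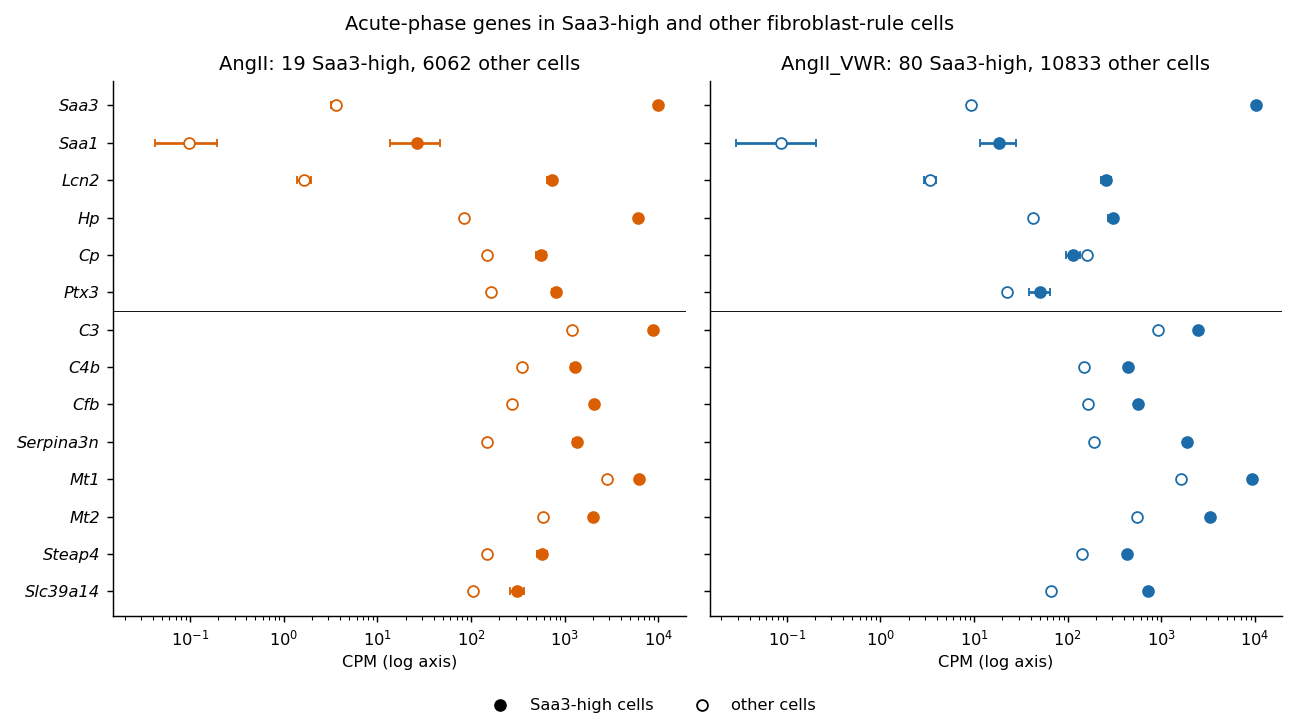
CPM (log axis) of the 6 members and of 8 other acute-phase genes in Saa3-high (filled) and other (open) fibroblast-rule cells of AngII and AngII_VWR, with exact 95% Poisson intervals. Filled points lie to the right of open ones for every gene in AngII, and in AngII_VWR for every gene except Cp. Saa3 chose the filled cells, so its shift was fixed by that choice. Saa1 and Lcn2 were too low in the other cells to pass the filter, and nothing is read from their shifts.

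The Saa3-high fibroblast-rule cells were chosen in part by Col1a1, Col1a2, Dcn and Lum, so only fibroblast markers outside that rule are compared. Pdgfra, a receptor typical of fibroblasts, stood at 242 CPM in the Saa3-high and 204 CPM in the other fibroblast-rule cells of AngII, and at 265 CPM in both sets of AngII_VWR. Col3a1 stood at 14108 against 8965 CPM and at 30406 against 6660 CPM. Of 12 mesothelial markers 0 were detected in AngII and 1, Wt1, in AngII_VWR, and of 4 epithelial markers 0 in both. Wt1 stood at 10.1 against 1.56 CPM in AngII_VWR, from 12 UMIs in 7 of the 80 cells, and at 0 against 4.83 CPM in AngII.

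Lists of several other cell types differed in level between the Saa3-high and the other fibroblast-rule cells. Of 11 neutrophil markers 0 were detected in AngII and 7 in AngII_VWR, summing to 69.0 CPM against 11.9 in the other cells. Few cells carried this: S100a8 and S100a9 held 35 and 28 UMIs, each in 4 of the 80 cells, and Csf3r held 7 in 1 cell. Retnlg, Ly6g, Ngp and Ltf were at 0. Of 7 adipocyte markers 3 were detected in AngII, summing to 132 against 13.4 CPM, and 2 in AngII_VWR, summing to 3.37 against 17.0 CPM. In AngII 56 of these 60 UMIs were on Cfd, in 2 cells, and Plin1, Cidec and Lep were at 0. Of 8 hepatocyte markers 1 was detected in AngII, at 8.81 against 5.24 CPM, and 2 in AngII_VWR, summing to 86.6 against 7.50 CPM. Ahsg, the gene of a serum glycoprotein made mainly in liver, held 101 of these 103 UMIs, and Alb, Apoa1 and Ttr were at 0 in both. The 7 macrophage markers, all detected, summed to 284 against 96.3 CPM in AngII and to 271 against 289 CPM in AngII_VWR. In AngII most of these UMIs were on the class-rule genes C1qa, C1qb and C1qc, with 52, 44 and 24. Outside the rule Csf1r stood there at 8.81 against 8.53 CPM, Mrc1 at 6.61 against 8.51, Adgre1 at 2.20 against 3.24 and Cd68 at 2.20 against 2.74. In AngII_VWR Csf1r, Mrc1 and Adgre1 were higher in the Saa3-high cells and Cd68 was lower. Of 6 monocyte markers 3 were detected in AngII, summing to 5624 against 2584 CPM, and 4 in AngII_VWR, summing to 2727 against 2588 CPM. Fn1, which fibroblasts also express, held 2257 of the 2554 monocyte-list UMIs in AngII, where Ccr2, Ly6c2 and Chil3 were at 0. Plac8 stood at 297 against 72.3 CPM in AngII and at 539 against 108 CPM in AngII_VWR, where it was found in 65 of the 80 cells. Vcan stood at 357 against 157 CPM and at 325 against 196 CPM. In AngII_VWR Fn1 was lower in the Saa3-high cells, at 1862 against 2282 CPM, as was Ccr2, at 0.841 against 1.57 CPM. The smooth muscle, endothelial, erythroid and Schwann lists were lower in the Saa3-high cells of both libraries, and the T and B cell lists held at most 1 UMI there. The part of these lists in the results was not tested. The Saa3-high cells were also deeper, with medians of 26490 and 13441.5 UMIs, and the part of depth was not tested. The matrix protease gene Mmp3 stood at 1982 against 454 CPM in AngII and at 11261 against 1148 CPM in AngII_VWR.

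In macrophage-rule cells of AngII, 9 Saa3-high cells held 572 of the 761 Saa3 UMIs. Cp stood there at 869.5 against 117 CPM, C3 at 595 against 69.7 CPM and Cfb at 556 against 57.7 CPM. The fibroblast markers summed to 716 CPM in these 9 cells and to 608 CPM in the other macrophage-rule cells. No Lcn2 or Ptx3 UMI was found in them. In AngII_VWR the 4 Saa3-high macrophage-rule cells held 5 Saa3 UMIs in all, too few to describe.

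Genes were ranked by their Pearson correlation with each member over the 10913 fibroblast-rule cells of AngII_VWR, on log(1 + UMIs per 10000), as a description of cells that share 1 library. Most like Saa3 were Chl1, a neural adhesion molecule (r = 0.52), and Lcn2 (r = 0.46). Over the 6081 fibroblast-rule cells of AngII these values were 0.32 and 0.47. The next were Kng1, Kcnj15, Tnfsf11, Cxcl5 and Ptger3 (r from 0.39 down to 0.32), which reached at most 0.18 in AngII. Most like Ptx3 were Has1, a hyaluronan synthase, and Tnfaip6, which modifies hyaluronan (r = 0.20 and 0.19, and 0.31 and 0.37 in AngII). Most like Hp were Emb and C4b (0.26 and 0.25), and most like Cp was Cxcl12 (0.30). Correlations of this size in sparse counts are weak, and no finding is drawn from them.

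Of 16 listed cytokines and receptors that induce acute-phase genes, 10 were measured in fibroblast-rule cells, and most of these did not pass a 2-fold difference. Il6, the main inducer of the acute phase, stood at 186, 628 and 86.7 CPM in fibroblast-rule cells of Vehicle, AngII and AngII_VWR. Osmr, the oncostatin M receptor, stood at 84.2, 177 and 131 CPM. In AngII over Vehicle 3 of the 10 were higher and 1 was lower, beside 3.03% and 1.76% of all genes. In AngII_VWR over AngII 1 was higher and 2 were lower, beside 1.91% and 1.75%.

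Among 12 transcription factors and feedback genes, all measured in fibroblast-rule cells, 5 were at least 2-fold lower in AngII_VWR than in AngII, beside 1.75% of all genes, and 0 were higher, beside 1.91%. Socs3, a feedback inhibitor of STAT3 signalling, stood at 580, 726 and 125 CPM in the 3 libraries. Bcl3, a nuclear partner of NF-kB, stood at 43.2, 76.5 and 24.7 CPM. The others were Zc3h12a, Relb and Nfkbiz, and the median log2 ratio of the 12 was -0.94. In AngII over Vehicle 0 of the 12 passed in either direction.

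The other acute-phase proteins and the partners of the members were mixed. Of 29 acute-phase proteins 8 were measured in fibroblast-rule cells in AngII over Vehicle, with 2 at least 2-fold higher, beside 3.03% of all genes, and 9 in AngII_VWR over AngII, with 1 lower, beside 1.75%. In macrophage-rule cells 5 of 9 measured were higher in AngII over Vehicle, beside 3.43% of all genes, and 0 lower, beside 1.96%. In AngII_VWR over AngII 2 of 11 were higher and 2 lower, beside 5.19% and 1.88%. In fibroblast-rule cells C4b stood at 124, 356 and 155 CPM and Slc39a14 at 38.7, 107 and 79.2 CPM in Vehicle, AngII and AngII_VWR. Tnfaip6, a binding partner of Ptx3, stood at 1746, 2466 and 472 CPM, and Has1 at 541, 440 and 145 CPM. Of 22 receptors and partners, 16 were measured in fibroblast-rule cells in AngII_VWR over AngII, with 2 higher and 2 lower, beside 1.91% and 1.75% of all genes. Of the 5 negative acute-phase proteins, which fall in the liver during inflammation, 2 were measured in each class. In fibroblast-rule cells 0 passed in either direction, and in macrophage-rule cells 1 was higher in AngII_VWR over AngII, the retinol carrier gene Rbp4, at 6.91 CPM in AngII and 38.3 CPM in AngII_VWR, beside 5.19% of all genes.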

How the data were processed

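The authors deposited raw UMI counts for each gene in each barcode. Cell Ranger 7.0.1 wrote those of Vehicle and AngII, and 7.1.0 those of AngII_VWR, per the file headers. The build was mm10 per the submitters' processing notes, and whether intronic reads were counted is not given in the sources used here. The members and lists were chosen with earlier results of these data known. The deposited totals, in the order Vehicle, AngII, AngII_VWR, were 165977330, 141570158 and 105679209.

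Kept barcodes had 300 or more genes, 500 or more UMIs and a mitochondrial share of up to 10%. Doublets were scored with Scrublet (scanpy 1.11.5), and the top of the scores was dropped at a rate of 0.8% for every 1000 cells (1537, 784 and 2894 barcodes), because its own threshold called only 248, 135 and 0. Libraries shared 44 to 80 barcodes. Cells meeting both class rules (65, 14 and 76) were kept apart. UMIs were summed per class and scaled to 1000000 (CPM). Intervals are 95%: exact Poisson for CPM, exact Clopper-Pearson for shares and exact conditional for ratios; a count of 0 was read as up to 3 counts. Molecules of 1 cell are not independent, so intervals and limits cover counting error only. The ratio calculation was tested on simulated independent Poisson counts. That setting cannot check the intervals of genes whose UMIs lie in few cells. From each list, up to 4 genes of at least 20 CPM with the largest fibroblast-rule ratio could be named; genes in Saa3-high cells beyond these, and Mmp3, were named after their values were seen. Python 3.11.15, numpy 2.4.6, scipy 1.17.1 and pandas 2.3.3 were used.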

Additional observations from a re-analysis of the deposited data

How the results depend on the processing

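No paired analysis was possible because each group is 1 library, and for the same reason no replicate could be left out. The log2 ratio of Saa3 in fibroblast-rule cells kept its sign under all alternatives run. For AngII over Vehicle (5.42) it was 3.88 with cells thinned to 2000 UMIs, 4.14 as a mean over cells, 2.71 with a pseudocount of 10 CPM and 1.75 without Saa3-high cells. For AngII_VWR over AngII (1.88) it was 1.81 with up to 20% mitochondrial UMIs, 1.80 without doublet removal, 2.24 with class cuts doubled, 1.62 thinned, 1.56 as a mean over cells, 1.78 less the median of all genes, 1.73 with the larger pseudocount and 1.17 without Saa3-high cells. The cause of these shifts was not tested. Leaving out Saa3-high cells for Saa3, and the 3 richest cells, was chosen after seeing the data. In macrophage-rule cells the Saa3 log2 ratio of AngII_VWR over AngII (-1.15) was -0.68 thinned, -0.46 as a mean over cells, -0.75 with the larger pseudocount, -3.55 with 5% free RNA subtracted and, reversed, 0.66 without Saa3-high cells.

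In fibroblast-rule cells 501 (AngII over Vehicle) and 387 (AngII_VWR over AngII) genes were at least 2-fold different, and in macrophage-rule cells 529 and 721. With a pseudocount of 10 CPM these were 221, 153, 202 and 219, and with at least 50 CPM 187, 138, 173 and 161. In macrophage-rule cells, AngII over Vehicle, 337 were higher and 192 lower; without doublet removal 285 and 495, as a mean over cells 295 and 337. In AngII_VWR over AngII, less the median, 390 were higher and 297 lower in place of 529 and 192. Over the member ratios other than Saa3 in fibroblast-rule cells, 142 of 234 values moved by less than their counting interval. A 2-fold call was lost in 8: macrophage-rule Saa3 in the 4 cases above other than free RNA, Lcn2 in AngII over Vehicle (1.98) without Saa3-high cells (0.65) and with the larger pseudocount (0.55), Hp in AngII_VWR over AngII (-1.30) without Saa3-high cells (-0.998), and Ptx3 in AngII over Vehicle (1.05) with the larger pseudocount (0.977). The sign changed in 4: macrophage-rule Saa3 above, and Cp in fibroblast-rule cells with class cuts doubled (0.46 to -0.01) and less the median (0.08 to -0.02) and in all cells as a mean over cells (-0.07 to 0.00073). No call was gained.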

Other observations

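Outside the fibroblast-rule and macrophage-rule cells, Lcn2 and Hp had other holders. Cells with at least 0.2% of UMIs on 6 endothelial markers numbered 62, 157 and 80 in Vehicle, AngII and AngII_VWR. They held Lcn2 at 344, 380 and 646 CPM and Cp at 1008, 471.5 and 707 CPM, whereas Saa3 was found in 0, 1 and 5 of them. Lcn2 was in 37 of 62, 28 of 157 and 31 of 80 of these cells.

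Cells with at least 1% of UMIs on S100a8 and S100a9, genes of neutrophils, numbered 10, 10 and 128. Hp stood there at 1771, 1316 and 289 CPM and Lcn2 at 2043, 114 and 233 CPM. In Vehicle 1 of the 10 cells held 86 of the 128 Lcn2 UMIs, and without it, left out after seeing the data, the level was 794 CPM; the AngII value of Lcn2 rests on 4 UMIs. The remaining Hp outside the 2 classes lay in a few cells, of which the highest held 922 UMIs in Vehicle and 751 in AngII. Cells of neither class with at least 0.1% of UMIs on Hp numbered 15, 23 and 31, of which 5, 7 and 13 were among the neutrophil-gene cells above, and 7 adipocyte markers summed to 36239.7, 17988 and 15955 CPM in them.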
